A study of Oryctolagus cuniculus with 30 samples.

Results

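The rabbit array of this study carries 3 classes of probe, marked AF, AM and UN in the probe names, and this account is of the AM probes. They were chosen as every non-control probe whose name starts with UF_Ocu_AM_; each of them is assigned to a contig, an assembled stretch of expressed sequence, whose name ends in the word minus. There were 673 AM probes among 23369 probes in all, 1 for each of 673 contigs, and each was printed in 2 spots. All 673 contigs also carry AF probes under the contig name without that word: 663 contigs have 2 of them and 10 have 1, which gives 1336 AF probes for a comparison of both orientations of the same contig. The series holds 14558 AF and 8138 UN probes. The files give neither a gene nor an annotation for any of these probes, and what the class letters stand for is not given in the sources used here.

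RNA came from the ear epidermis of rabbits, all female and of the New Zealand White breed, and was read on 30 1-colour (Cy3) Agilent arrays of 60-base probes, 1 sample per array. The epidermis was lifted from the dermis with ammonium thiocyanate. Grids of shallow incisions were kept under a single layer of Tegaderm, a transparent adhesive film, until the epidermis had closed, which is called day 0. From then on the film was off the right ear, and wounds of the left ear carried 4 added layers. Covering therefore goes with the left ear in every comparison of covered with uncovered wounds, and film and ear side cannot be told apart. The groups were unwounded skin (n = 2), wounds at day 0 (n = 6), uncovered wounds at day 3 (n = 6), covered wounds at day 3 (n = 5), uncovered wounds at day 5 (n = 6) and covered wounds at day 5 (n = 5). Which animal each array came from is not given. The p-values therefore describe the spread among the samples of a group, which may be technical, and both ears of an animal may have entered opposite arms of a comparison. The scanner files name no gene, so the epidermal label could not be set against marker genes.

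Strand matters for how such a probe is read. In the Quick-Amp labelling named in the labels, RNA is copied into cDNA and then into labelled cRNA, which is complementary to the original transcript, so a probe on the array lights up for RNA that has the same sequence as the probe itself. A contig assembled from expressed sequence tags often has no certain direction, and an array designer who does not know it can place probes on both strands. Many vertebrate loci are transcribed from both strands, and the antisense RNA can be spliced, polyadenylated and regulated separately from the sense RNA. The hexamer AATAAA is the usual polyadenylation signal, found shortly before the 3′ end of an mRNA. As a signal it therefore reads AATAAA only on the strand that has the sequence of the mRNA.

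The probe sequences show that AM and AF probes of a contig lie on opposite strands. An exact stretch of at least 16 bases on the opposite strand was shared with an AF probe of the same contig by 149 AM probes (median 46 bases), and 0 AM probes shared such a stretch on the same strand. For 10 contigs the AM probe is the exact reverse complement of an AF probe, so these pairs ask for the 2 strands of the same 60 bases. The sequences of 3 of them are printed here 5′ to 3′ because they give the most direct reading of strand. Only the AM probe was detected in the first and second pair, on 22 and 25 of the 30 arrays. In the third only the AF probe was detected.
UF_Ocu_AM_115128: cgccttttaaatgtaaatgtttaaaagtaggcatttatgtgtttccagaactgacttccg
UF_Ocu_AF_107635: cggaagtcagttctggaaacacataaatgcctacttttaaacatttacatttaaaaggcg
UF_Ocu_AM_114565: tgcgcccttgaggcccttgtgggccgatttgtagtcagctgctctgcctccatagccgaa
UF_Ocu_AF_102304: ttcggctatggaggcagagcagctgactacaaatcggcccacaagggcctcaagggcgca
UF_Ocu_AM_114752: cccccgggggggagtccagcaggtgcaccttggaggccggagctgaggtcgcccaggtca
UF_Ocu_AF_113760: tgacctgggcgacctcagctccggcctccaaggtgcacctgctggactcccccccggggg

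A further 4 pairs overlap in part, and the capitals mark the bases that are the reverse complement of the other probe of the pair. They are shown because all 8 probes were above background on nearly every array, so the 2 strands could be followed side by side through the wound course.
UF_Ocu_AM_114701: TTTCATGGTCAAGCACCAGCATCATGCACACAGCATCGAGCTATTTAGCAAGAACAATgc
UF_Ocu_AF_110354: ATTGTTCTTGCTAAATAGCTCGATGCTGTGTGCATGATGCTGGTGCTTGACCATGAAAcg
UF_Ocu_AM_115100: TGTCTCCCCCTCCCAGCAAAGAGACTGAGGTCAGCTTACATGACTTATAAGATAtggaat
UF_Ocu_AF_103597: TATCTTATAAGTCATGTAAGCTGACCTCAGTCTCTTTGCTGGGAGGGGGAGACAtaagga
UF_Ocu_AM_114773: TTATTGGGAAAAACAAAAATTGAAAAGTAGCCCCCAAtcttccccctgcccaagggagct
UF_Ocu_AF_103760: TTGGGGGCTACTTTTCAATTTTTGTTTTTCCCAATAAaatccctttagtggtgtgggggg
UF_Ocu_AM_115186: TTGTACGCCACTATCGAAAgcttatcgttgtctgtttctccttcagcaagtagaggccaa
UF_Ocu_AF_108444: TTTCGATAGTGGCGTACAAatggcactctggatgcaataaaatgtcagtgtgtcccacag

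Most AM probes gave no signal that the scanner software marked as well above background. Of the 673 probes, 485 (72.1%) were well above background on 0 of the 30 arrays, 32 (4.75%) on 1 array, 111 (16.5%) on 2 to 29 arrays and 45 (6.69%) on all 30. Among the 1336 AF probes of the same contigs the shares were 31.7% on 0 arrays and 47% on all 30, close to 30.8% and 42.9% of all AF probes. The UN probes lay between, with 65.1% on 0 arrays and 14.3% on all 30. A probe with 0 detections may still read a transcript below the detection limit, which the array cannot separate from absence.

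The detected share of AM probes varied between arrays, and its range did not separate the groups. It was 12.5% and 12.9% in the 2 samples of unwounded skin. Its lowest, median and highest values were 12.2%, 14.3% and 18.3% in wounds at day 0, 11.3%, 12.4% and 15.6% in uncovered wounds at day 3, and 11.4%, 12.5% and 16.9% in uncovered wounds at day 5. In covered wounds at day 3 the 5 arrays gave 13.8%, 15.5%, 13.8%, 20.1% and 11.3%, and in covered wounds at day 5 they gave 23.6%, 12.3%, 12.6%, 12.6% and 16.5%. The ranges of all 6 groups overlap. Within the 3 slides that held both groups, covered minus uncovered was 1.49, 2.97 and 1.49 percentage points at day 3. At day 5 these differences were 0.59, 4.31 and -1.49. The highest share belongs to covered day 5 replicate 1, on the slide numbered 6 here, where 64.5% of the AF probes of the same contigs were also above background, the highest value of the 30 arrays. Negative control spots, 403 per array, were marked well above background at 2.98% to 4.71%, so the AM share lay above the control share on each of the 30 arrays.

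Detection on the AM strand did not follow detection on the AF strand closely. In 246 contigs (36.6%) the AM probe was detected on 0 arrays while an AF probe was detected on all 30, and in 124 contigs (18.4%) every probe was at 0. In 22 contigs (3.27%) both strands were read on all 30 arrays, and in 16 (2.38%) the AM probe was on all 30 while the AF probes were on 0. An AM probe was on all 30 arrays in 9.82% of the 163 contigs with AF probes at 0, in 4.93% of the 142 with AF probes on 1 to 29 arrays, and in 5.98% of the 368 with an AF probe on all 30. In the same order, the AM probe was on 0 arrays in 76.1%, 81% and 66.8% of them. Detection of the AM probe on any array was thus most frequent where an AF probe was on all 30. Among the 10 exact complements, AM detection reached at least 2 arrays for 3 and AF detection for 7, and both strands did so in a single contig. UF_Ocu_AM_115128 was detected on 22 arrays and its complement on 0; UF_Ocu_AM_114565 was detected on 25 and its complement on 0; UF_Ocu_AM_114752 was detected on 0 and its complement on 30.

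The hexamer AATAAA was most frequent in AM probes read on every array from contigs whose AF probes were on 0. Whether it is a polyadenylation signal in these probes, or part of some other sequence, was not tested. Both hexamers were searched in the 60 bases as printed on the array. AATAAA was present in 9 of the 45 AM probes on all 30 arrays (20%), in 3 of the 143 on 1 to 29 arrays (2.1%) and in 21 of the 485 on 0 arrays (4.33%). The reverse complement, TTTATT, was present in 1 (2.22%), 1 (0.699%) and 24 (4.95%) of them. The AF probes on the same array showed 14.5% with AATAAA among 6239 on all 30 arrays and 3.72% among 4486 on 0 arrays, against 7.81% of all 23369 probes. In the 16 AM probes read on all 30 arrays from contigs with AF probes on 0, 5 held the hexamer (31.2%), against 1 of the 22 from contigs with an AF probe on all 30 (4.55%). These counts are descriptions of small sets of 60-base windows, with no test.

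Those 5 probes are printed with AATAAA in capitals, since in their contigs only the AM probe was detected. Whether RNA of other loci also binds these probes was not tested.
UF_Ocu_AM_114647: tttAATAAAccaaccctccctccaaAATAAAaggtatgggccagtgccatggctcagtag
UF_Ocu_AM_114825: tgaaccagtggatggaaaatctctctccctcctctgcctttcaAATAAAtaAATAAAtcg
UF_Ocu_AM_114833: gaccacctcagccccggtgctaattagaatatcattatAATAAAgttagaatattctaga
UF_Ocu_AM_114885: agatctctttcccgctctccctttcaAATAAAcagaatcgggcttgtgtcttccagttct
UF_Ocu_AM_115231: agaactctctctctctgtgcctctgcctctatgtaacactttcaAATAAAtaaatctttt
Of these 5, UF_Ocu_AM_114825, UF_Ocu_AM_114885 and UF_Ocu_AM_115231 share the longer string TCAAATAAA, which was looked for after the sequences had been seen. These are the only 3 of the 673 AM probes that hold it (0.446%), against 0.449% of the AF probes of the same contigs and 0.21% of all probes.

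A second string was more frequent among AM probes than among the other classes. ACGCGT, which reads the same on both strands, was present in 70 AM probes (10.4%), and in 68 of the 70 it started at base 40 or later of the 60 (median start 53). It was held by 62 of the 485 probes on 0 arrays (12.8%) and by 1 of the 45 on all 30 (2.22%), and by 0.694% of all AF and 3.21% of all UN probes. Base composition differed less: GC content was 44.4% ± 5.31 (SD, n = 485 probes) on 0 arrays and 44% ± 7.62 (SD, n = 45 probes) on all 30, and A content was 30.7% ± 7.1 and 27.7% ± 8.06 in the same sets.

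For changes between groups, 156 AM probes (23.2%) could be tested, those well above background on at least 2 arrays, in a limma fit over all 30 arrays and 12342 probes. Levels below are log2 of the processed signal minus the 75th percentile of the array, and 592 of the 673 AM probes had a mean level under -6. Calls rest on limma p-values adjusted by Benjamini-Hochberg over all tested probes, with a threshold of 0.05. A fold against a group with no array well above background is given as at least that many fold, with the probe on each dim array raised to the faintest signal that the array held well above background, unless its own was higher. That faintest signal belongs to another probe. A p-value beside such a fold comes from the fit of the levels as measured, not raised.

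The first comparison was of covered with uncovered wounds at day 3, which differ in film and in ear side. limma called 18 of 156 AM probes (11.5%), 6 higher and 12 lower under the film, against a background of 16.3% over all 12342 probes, and the median log2 change of the AM probes was -0.00 against 0.04 over all. The AF probes of the same contigs were called at 22.1% (192 of 870). The largest falls were of UF_Ocu_AM_115100, UF_Ocu_AM_114773 and UF_Ocu_AM_115186, and the largest rises of UF_Ocu_AM_114635, UF_Ocu_AM_115168 and UF_Ocu_AM_114657.

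UF_Ocu_AM_115100 was brightest at wound closure and lower in covered than in uncovered wounds at day 3. Its level was -2.79 in the single measured sample of unwounded skin, and its lowest, median and highest levels were 1.34, 2.16 and 2.74 at day 0 and -1.82, 0.20 and 2.28 in uncovered wounds at day 3. In the 5 covered wounds at day 3 it was -2.34, -2.33, -2.71, -3.24 and -2.93. Every covered sample lay below every uncovered sample of that day. The log2 change with covering was -3.01 (SE 0.45, limma adjusted p = 4.59e-05), an 8.04-fold lower signal, and on each of the 3 slides carrying both groups it was -2.0, -2.62 and -4.99. At day 5 its levels were -2.02 to -0.86 uncovered and -2.42 to -1.91 covered (4 samples measured), and the change of -0.72 was not called (limma adjusted p = 0.312).

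The AF probes on the other strand of this contig did something else. UF_Ocu_AF_103597, whose sequence overlaps UF_Ocu_AM_115100 by 54 bases, ranged from -5.92 to -3.32 uncovered and from -4.89 to -3.68 covered at day 3, groups that overlap, and its change was 0.32 (limma adjusted p = 0.749). The change of the AM probe differed from that of UF_Ocu_AF_103597 by -3.33 (SE 0.70, limma adjusted p = 0.0127 over all probe pairs of a contig) and from that of UF_Ocu_AF_103596 by -3.32 (SE 0.66, limma adjusted p = 0.00981). With normexp neither difference was called (limma adjusted p = 0.113 for both), and with slide as a block the first was not (-3.0, limma adjusted p = 0.056). The first was also lost without covered day 3 replicate 4 or replicate 5.

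UF_Ocu_AM_114773 followed the same course. It read -5.02 and -8.29 in unwounded skin, the second value not well above background, and -1.63, -0.80 and 0.08 (lowest, median, highest) at day 0. In uncovered wounds at day 3 the same 3 values were -4.15, -2.50 and -0.57, and the covered samples read -4.57, -4.66, -4.95, -5.31 and -5.47, all below the uncovered ones. The log2 change with covering was -2.65 (SE 0.61, limma adjusted p = 0.0034), and -1.76, -2.46 and -4.37 within slides. UF_Ocu_AF_103760, which overlaps it by 37 bases on the other strand, changed by 0.34 (limma adjusted p = 0.517), and the difference of the 2 changes was -2.99 (SE 0.53, limma adjusted p = 0.00268).

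UF_Ocu_AM_115186 moved together with both AF probes of its contig. It read -4.15 and -3.41 in unwounded skin, had a median of -4.18 at day 0 (lowest -4.98, highest -3.53) and of -2.46 in uncovered wounds at day 3 (lowest -3.02, highest -0.93), and read -4.07, -3.96, -4.03, -3.27 and -4.05 in covered wounds at day 3. The 2 groups of day 3 did not overlap. The change was -1.58 (SE 0.32, limma adjusted p = 0.00124), beside -1.57 for UF_Ocu_AF_108444 (limma adjusted p = 0.000596) and -1.95 for UF_Ocu_AF_108443 (limma adjusted p = 0.00463). The difference from UF_Ocu_AF_108444 was -0.02 (SE 0.12), and that from UF_Ocu_AF_108443 was 0.36 (SE 0.22); neither was called (limma adjusted p of 0.983 and 0.54).

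Of the rises at day 3, UF_Ocu_AM_114635 went from a median of -5.41 uncovered to -4.17 covered, and its ranges of -5.71 to -4.84 and -4.53 to -3.82 did not overlap. Its change was 1.19 (SE 0.22, limma adjusted p = 0.000438), beside 0.90 and 0.87 for the AF probes of the contig, both called, and the strands did not differ in change by the test (limma adjusted p = 0.444 for both pairs). UF_Ocu_AM_115168 was detected on 5 of 5 arrays of covered wounds and on 0 of 6 of uncovered wounds, with medians of -6.0 and -7.15, and its signal was at least 1.32-fold higher under the film (limma adjusted p = 0.00102). UF_Ocu_AM_114657 rose by 0.81 (SE 0.16, limma adjusted p = 0.000853), from a median of -4.35 to -3.60, with ranges of -4.56 to -4.16 and -3.75 to -3.07. Its AF partner UF_Ocu_AF_113824 changed by -0.09, and the difference of 0.91 (SE 0.23) was called (limma adjusted p = 0.0408). That call was lost with quantile normalization (limma adjusted p = 0.102), the authors' table (0.188), no filter on dim probes (0.0573) and normexp (0.83), and on leaving out any one of the 6 uncovered day 3 arrays or covered replicate 1, 2, 4 or 5. The difference of 0.73 (SE 0.56) from the contig's other AF probe, UF_Ocu_AF_113823, was not called (limma adjusted p = 0.651). With normexp background correction none of these 3 rises was called (limma adjusted p of 0.203, 0.902 and 0.192), while the 3 falls were. The number of AM calls was 3 with normexp and 42 with array weights.

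At day 5 the largest differences were of AM probes well above background in uncovered wounds of that day and lower in covered ones. limma called 22 of 156 AM probes (14.1%), 8 higher and 14 lower, against 13.7% over all probes; with quantile normalization the same split was 15 higher and 10 lower. The median change of the AM probes was -0.29 against -0.01 over all probes, and it was -0.07 against 0.11 with quantile normalization. With the scaling used, the median was -0.38 for the tested UN probes and 0.04 for the tested AF probes. A downward shift was therefore not particular to AM probes. The largest falls were of UF_Ocu_AM_115227, UF_Ocu_AM_114927 and UF_Ocu_AM_114923, printed here with UF_Ocu_AM_115210, because these probes had the largest falls with covering or the largest rises from day 0 to uncovered day 5.
UF_Ocu_AM_115227: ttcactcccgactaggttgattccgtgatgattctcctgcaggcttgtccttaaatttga
UF_Ocu_AM_114927: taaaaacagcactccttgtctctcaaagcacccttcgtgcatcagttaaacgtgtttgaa
UF_Ocu_AM_114923: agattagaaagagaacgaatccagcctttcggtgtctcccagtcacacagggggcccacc
UF_Ocu_AM_115210: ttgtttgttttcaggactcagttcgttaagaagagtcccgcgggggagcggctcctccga

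UF_Ocu_AM_114927 was well above background on all 6 uncovered arrays of day 5, on 3 of 5 covered arrays of day 5 and on 0 of the other 19 arrays. Its levels in uncovered wounds at day 5 were -4.18, -3.31 and -2.62 (lowest, median, highest), and the covered samples read -7.71, -6.11, -5.97, -5.27 and -4.92, all below them. At day 0 the highest of the 6 samples was -7.74, and at day 3 the highest were -7.81 uncovered and -7.99 covered. The log2 change with covering at day 5 was -2.67 (SE 0.38, limma adjusted p = 2.29e-05) and within slides it was -3.35, -2.11 and -2.55. From day 0 to uncovered day 5 the signal was at least 11.4-fold higher (limma adjusted p = 4.35e-11). UF_Ocu_AF_106768, an AF probe of the contig read on all 30 arrays, changed by 0.24 with covering at day 5, and the difference of the 2 changes was -2.91 (SE 0.31, limma adjusted p = 4.16e-06).

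At day 3 the probe was not well above background on any of the 11 arrays, so there is no measured effect of covering on that day to set beside the fall at day 5. The fitted change at day 5 minus the fitted change at day 3 was -2.67 (SE 0.54, limma adjusted p = 0.0358), the only called value among the 156 AM probes. Over all 12342 probes 0.122% were called. Of the 156 AM probes 23 had an unadjusted limma p under 0.05, and the share of all probes at that level is not given here. With normexp the value of UF_Ocu_AM_114927 was -1.72 (limma adjusted p = 0.998). The call is also lost at a limma adjusted p of 0.0609 with no filter on dim probes and 0.0687 with the replicate number as a block, and on leaving out any of 11 arrays in turn, with values between -2.75 and -2.53.

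UF_Ocu_AM_115227 was well above background on the 6 uncovered arrays of day 5 and on 0 of the other 24. Its levels there were -5.85, -5.22 and -4.30 (lowest, median, highest), against -10.37, -7.22, -7.13, -7.80 and -7.75 in the covered samples of that day. The first of these covered values is from the array on slide 6. Covering gave a signal at least 2.69-fold lower. The probe passed the detection filter only through the uncovered day 5 arrays, so its limma call is no separate support for this fall. Within slides the covered samples, not above background, gave log2 differences of -2.02, -2.40 and -1.36, which are not measured changes. UF_Ocu_AM_114923 changed by -2.18 (SE 0.49, limma adjusted p = 0.00366), from a median of -4.20 on 6 of 6 detected arrays to -5.84 on 2 of 5; within slides it was -2.25, -1.49 and -1.57. With normexp these 3 falls were -1.80, -2.04 and -1.75 and were not called (limma adjusted p of 0.168, 0.08 and 0.115).

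The largest rises with covering at day 5 were of UF_Ocu_AM_114841 (0.94, SE 0.18, limma adjusted p = 0.00116), UF_Ocu_AM_114635 (0.80, SE 0.22, limma adjusted p = 0.0144) and UF_Ocu_AM_114576 (0.78, SE 0.23, limma adjusted p = 0.027). UF_Ocu_AM_114841 was read on all 30 arrays while the AF probes of its contig were at 0; its median went from -4.51 uncovered to -3.57 covered, with ranges of -4.86 to -3.95 and -3.99 to -3.06 that overlap. UF_Ocu_AM_114576 and its partner UF_Ocu_AF_106936 rose alike, by 0.78 and 0.80. The call of UF_Ocu_AM_114576 is lost without slide 6 (0.65, limma adjusted p = 0.0836), with slide (0.71, 0.0686) or scan day (0.74, 0.0655) as a block, with no filter on dim probes (0.0555), and without uncovered replicate 5 or 6 or covered replicate 1, 4 or 5 of day 5. With normexp all 3 rises lost the call. The 22 calls of this comparison were 13 without uncovered day 5 replicate 5, 11 without covered day 5 replicate 1 and 12 without covered day 5 replicate 4.

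Between the days, 5 AM probes were called for covering at both, 27.8% of the day 3 calls and 22.7% of the day 5 calls; these comparisons share no array. All 5 had the same direction on both days. The overlap over all tested probes is not given here, so these counts cannot be read as particular to AM probes. UF_Ocu_AM_114635, UF_Ocu_AM_115168 and UF_Ocu_AM_114763 were higher under the film, and UF_Ocu_AM_114867 and UF_Ocu_AM_114588 were lower. UF_Ocu_AM_115168 was not well above background on any uncovered array of either day, and at day 5 it was so on 2 of 5 covered arrays; its day 5 change turned negative with normexp (-0.17, limma adjusted p = 0.859) and was not called without covered day 5 replicate 4. UF_Ocu_AM_114763 and UF_Ocu_AM_114588 are named because of this overlap, after their values were seen. At day 3, 4 of the 6 arrays without film detected UF_Ocu_AM_114867 and 0 of the 5 with film did; its signal was at least 1.79-fold lower (limma adjusted p = 5.26e-05), a call lost with normexp (limma adjusted p = 0.318). Its fall at day 5, -0.81 (limma adjusted p = 0.00244), was not called with quantile normalization (-0.50, limma adjusted p = 0.0671), with the authors' table (-0.17, limma adjusted p = 0.134) or with normexp (-0.88, limma adjusted p = 0.237). UF_Ocu_AF_100892, which overlaps UF_Ocu_AM_114867 by 34 bases on the other strand, fell by 1.14 at day 3 (limma adjusted p = 0.0015).

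Day 0 and unwounded skin differ by wounding and closure, and the wounds had been under a single layer of film until day 0. Any effect of that film cannot be told apart from wounding in this comparison. limma called 51 of 156 AM probes (32.7%), 22 higher and 29 lower, against 37.3% over all probes; the 75th percentile over all probes gave 28 higher and 26 lower. Only 2 unwounded samples were measured, they lay on slides 5 and 6, no slide held both groups, and without unwounded replicate 2, the array on slide 6, the count was 26. With slide as a block, which links these groups only through other groups on their slides, 46 AM probes were called, 17 higher and 29 lower.

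UF_Ocu_AM_114773 rose by 5.79 on the log2 scale (SE 0.82, limma adjusted p = 4.74e-06), a 55.4-fold difference, and all 6 wounds lay above both unwounded samples. UF_Ocu_AM_115100 rose by 4.88 (SE 0.80, limma adjusted p = 4.34e-05) against the 1 unwounded sample in which it was measured. Here, and for UF_Ocu_AM_114702 and UF_Ocu_AM_114944, the spread comes from the other groups, and the lone unwounded sample is assumed to vary like them. UF_Ocu_AF_103760 changed by 0.26, and UF_Ocu_AF_103596 and UF_Ocu_AF_103597 by -0.02 and -0.28, none of them called. The differences in change between the strands were 5.54 for the first contig and 4.66 and 5.50 for the second, where they rest on the same lone sample; limma called all 3 (adjusted p of 1.93e-05, 0.0124 and 0.00594). The last 2 were not called with array weights (limma adjusted p of 0.339 and 0.283). UF_Ocu_AM_114702, an AM probe on all 30 arrays with AF probes at 0, went from -3.71 in 1 measured unwounded sample to a median of -1.19 at day 0 (lowest -1.63, highest 0.25) and a change of 2.81 (SE 0.96, limma adjusted p = 0.0231); with scan day as a block it was not called (limma adjusted p = 0.122).

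The largest falls at closure were of UF_Ocu_AM_114944, UF_Ocu_AM_115167 and UF_Ocu_AM_114962. UF_Ocu_AM_114944 read -4.93 in the measured unwounded sample, was well above background on both unwounded arrays and on 0 of 6 arrays of day 0 (lowest -9.60, median -8.82, highest -8.59), and stayed at background on all but 1 of the later arrays. Its signal at day 0 was at least 3.76-fold lower, against 1 measured unwounded sample. Without the unwounded arrays the probe would not have passed the filter of 2 arrays, so its limma call is no separate support. That call was lost with normexp. UF_Ocu_AM_115167 went from -1.07 and -1.06 to a median of -4.31 (lowest -6.51, highest -2.93), a change of -3.41 (SE 0.75, limma adjusted p = 0.000834). With scan day as a block the change was -3.26 and not called (limma adjusted p = 0.062). The probe was back at medians of -1.12 uncovered and -1.55 covered at day 5. UF_Ocu_AM_114962 fell by 2.55 (SE 0.81, limma adjusted p = 0.0146), and without unwounded replicate 1 the fall was 1.19 and not called.

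UF_Ocu_AM_114848 and UF_Ocu_AM_114990 are printed with AATAAA in capitals, as both were read on all 30 arrays, both hold the hexamer and both dipped at closure.
UF_Ocu_AM_114848: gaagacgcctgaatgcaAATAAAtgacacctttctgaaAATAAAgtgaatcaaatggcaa
UF_Ocu_AM_114990: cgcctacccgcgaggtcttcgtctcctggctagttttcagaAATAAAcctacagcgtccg
UF_Ocu_AM_114848 read -1.63 and -1.62 in unwounded skin and -3.38, -3.02 and -2.84 (lowest, median, highest) at day 0, a change of -1.44 (SE 0.18, limma adjusted p = 1.12e-06). At day 3 its medians were -1.60 uncovered and -1.79 covered, and at day 5 they were -2.31 and -2.38; covering made a difference of -0.23 and -0.00, neither called. UF_Ocu_AM_114990 read -0.82 and -0.20 in unwounded skin and -3.07, -2.50 and -1.99 at day 0, a change of -1.97 (SE 0.25, limma adjusted p = 1.43e-06), and its medians were -1.01 uncovered and -0.85 covered at day 3 and -0.22 uncovered and -0.68 covered at day 5. For both probes every wound of day 0 lay below both unwounded samples.

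The later wounds were then compared with wounds at day 0, which all 4 of these comparisons share as controls. Time since closure goes with removal of the film in uncovered wounds and with 4 added layers in covered ones. Time and film therefore cannot be told apart here. In uncovered wounds at day 3 limma called 38 AM probes (24.4%), 17 higher and 21 lower, against 35.7% over all probes. In covered wounds at day 3 it called 58 (37.2%), 34 higher and 24 lower, against 44.5%. In uncovered wounds at day 5 it called 94 (60.3%), 73 higher and 21 lower, against 65.5%, and in covered wounds at day 5 it called 88 (56.4%), 64 higher and 24 lower, against 56.1%. The directions depend on the scaling. The median change of all tested probes was 0.13, 0.17, 0.47 and 0.33 in these comparisons with the scaling used, and -0.04, 0.02, -0.02 and 0.02 with quantile normalization. With quantile normalization 7, 23, 33 and 35 AM probes were called higher in these comparisons, and 26, 30, 49 and 43 lower. With the percentile over all probes 7, 24, 47 and 41 were called higher, and 27, 30, 34 and 36 lower.

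Relative to day 0, UF_Ocu_AM_115100 was lower in all 4 groups, with log2 changes of -4.80 and -4.29 in covered wounds at day 3 and day 5 and of -1.79 and -3.56 in uncovered wounds (limma adjusted p of 4.98e-09, 7.42e-08, 0.00187 and 1.59e-07). UF_Ocu_AM_114773 changed by -4.13 and -4.56 in covered and by -1.48 and -2.96 in uncovered wounds; the value of -1.48 had a limma adjusted p of 0.0467 and was lost with no filter on dim probes (limma adjusted p = 0.0799) and on leaving out single arrays. These were the 2 largest falls among the AM probes eligible for naming in all 4 comparisons except uncovered day 3, where UF_Ocu_AM_114725 fell by 1.61 (SE 0.51, limma adjusted p = 0.0144). UF_Ocu_AM_114867 was at least 3.26-fold lower in covered wounds at day 3 (limma adjusted p = 7.36e-10), since all 6 arrays of day 0 and 0 of the 5 covered arrays of day 3 read it well above background.

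UF_Ocu_AM_115128, the exact complement of an AF probe detected on 0 arrays, was highest at day 0 and lower in the later wounds. In unwounded skin the probe read -6.09 and -5.28 and was detected on 1 of 2 arrays. It read -4.86, -4.42 and -4.13 (lowest, median, highest) at day 0, where all 6 arrays detected it, and its medians were -5.62 uncovered and -5.55 covered at day 3 and -5.99 uncovered and -5.84 covered at day 5. The fall to uncovered day 5 was 1.59 (SE 0.19, limma adjusted p = 5.58e-08). UF_Ocu_AF_107635, which asks for the other strand of these 60 bases, was not well above background on any of the 30 arrays.

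Of the rises from day 0, UF_Ocu_AM_114605 went up by 2.08 (SE 0.21) in uncovered wounds at day 3 and by 1.00 in covered ones. The AF probes of the contig, UF_Ocu_AF_100094 and UF_Ocu_AF_100093, rose by 2.11 and 1.24 and by 1.80 and 1.24, all called. With covering at day 3 the AM change differed from that of UF_Ocu_AF_100093 by -0.52 (limma adjusted p = 0.0269), and at closure by -0.60 (0.0155). Against UF_Ocu_AF_100094 neither difference was called (limma adjusted p of 0.459 and 0.959). UF_Ocu_AM_115186 went up by 1.98 in uncovered wounds at day 3 (limma adjusted p = 1.35e-05) and by 0.39 in covered ones (limma adjusted p = 0.353). UF_Ocu_AM_114802 rose by 2.0 in covered wounds at day 3 and by 2.99 at day 5 (limma adjusted p of 0.0062 and 0.000103), and its partner UF_Ocu_AF_104729 by 1.58 and 1.01. At uncovered day 5 UF_Ocu_AM_115210 was well above background on 6 of 6 arrays against 0 of 6 at day 0, at least 8.29-fold higher (limma adjusted p = 2.27e-07). UF_Ocu_AM_115227 was at least 3.03-fold higher, but it passed the detection filter only through these uncovered day 5 arrays.

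In some contigs the strands moved in opposite directions. At covered day 5 UF_Ocu_AM_115100, with its change of -4.29 over the 4 covered samples in which it was fitted, stood beside rises of 1.15 and 1.13 of UF_Ocu_AF_103596 and UF_Ocu_AF_103597 (limma adjusted p of 0.0295 and 0.0497). The differences were -5.36 (SE 0.71) and -5.54 (SE 0.75), with limma adjusted p of 1.11e-05 and 1.34e-05. The contig of UF_Ocu_AM_114698 was another. From day 0 to covered day 5 the AM probe fell by 2.38 (SE 0.59, limma adjusted p = 0.00134), while UF_Ocu_AF_103203 rose by 1.74 (limma adjusted p = 0.00159). The difference in change was -4.11 (SE 0.70, limma adjusted p = 0.000163). The AM probe was well above background on 6 of 6 arrays of day 0 and on 3 of 5 covered arrays of day 5.

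Over all contigs, AM and AF probes that both could be tested formed 208 pairs in 117 contigs, and pairs of AF probes, 4228 in as many contigs, were the measure of how alike 2 probes of the same strand behave. With covering at day 3 the change differed within 8 of 208 AM and AF pairs (3.85%) and 49 of 4228 AF pairs (1.16%), against 1.28% of all 4436 pairs. At day 5 it differed within 13 (6.25%) and 77 (1.82%), against 2.03% of all. From unwounded skin to day 0 the counts were 39 (18.8%) and 597 (14.1%), against 14.3%. From day 0 to uncovered day 3, covered day 3, uncovered day 5 and covered day 5 they were 16 (7.69%), 32 (15.4%), 66 (31.7%) and 45 (21.6%) of the AM and AF pairs, beside 2.2%, 5.91%, 16.7% and 15% of the AF pairs and 2.46%, 6.36%, 17.4% and 15.3% of all pairs. An AM probe enters up to 2 pairs, and these shares are not matched for signal.

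The pair counts move with single arrays and with the processing. In place of 8 pairs for covering at day 3, there were 3 without covered replicate 4 of that day and 5 without covered replicate 5 or uncovered replicate 4 or 5. In place of 39 pairs at closure, there were 5 without unwounded replicate 2. Restricted to the 34 pairs in 22 contigs in which both probes were on all 30 arrays, the counts were 2, 1, 7, 3, 3, 8 and 8 in the order given above, or 5.88%, 2.94%, 20.6%, 8.82%, 8.82%, 23.5% and 23.5%. Among 2574 AF pairs with both probes on all 30 arrays the shares were 0.855%, 1.09%, 14.5%, 1.13%, 4.16%, 13.5% and 12.7%.

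Where both probes of a pair were called in the limma fit, they mostly moved the same way. With covering the direction was shared by 16 of 16 AM and AF pairs at day 3 and by 13 of 13 at day 5. It was shared by 48 of 49 pairs at closure, 45 of 45 at uncovered day 3, 58 of 59 at covered day 3, 85 of 92 at uncovered day 5 and 86 of 94 at covered day 5. For AF pairs the counts were 564 of 565, 339 of 341, 1333 of 1340, 1489 of 1492, 1841 of 1849, 2448 of 2484 and 2199 of 2226 in the same order. At day 5 against day 0, AM and AF pairs thus moved in opposite directions in 7 and 8 pairs, and AF pairs in 36 and 27. UF_Ocu_AM_114701 and UF_Ocu_AF_110354, which share 58 bases on opposite strands and were both on all 30 arrays, are an example: from unwounded skin to day 0 they rose by 1.37 and 0.93, with a difference of 0.45 (SE 0.42, limma adjusted p = 0.485). With covering at day 3 UF_Ocu_AF_110354 fell by 0.89 (limma adjusted p = 0.00389) while UF_Ocu_AM_114701 changed by -0.45 (limma adjusted p = 0.288), and the difference of 0.44 (SE 0.31) was not called (limma adjusted p = 0.612).

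The same calls were counted beside AF probes of like signal. Among tested probes with a mean level under -6, covering at day 3 was called for 12% of 75 AM and 14.3% of 1701 AF probes, and at day 5 for 16% and 10.9%. Between -6 and -4 the shares were 8.89% of 45 AM and 15.9% of 2080 AF probes at day 3, and 17.8% and 12.6% at day 5. Between -4 and -2 they were 19% of 21 AM and 17.6% of 2124 AF probes at day 3, and 9.52% and 14.7% at day 5. Between -2 and 0 there were 8 AM probes, 1 called at day 3 and 0 at day 5, and from 0 upward 7, with 0 called on either day; the AF shares there were 20.6% and 21.3% at day 3 and 15.5% and 12.3% at day 5. No single order of the classes held over the bands. Detection on all 30 arrays between -6 and -4 was reached by 11 of 45 AM and 558 of 2080 AF probes. These strata were formed on the mean level over all arrays, and no test was made of the difference between the classes.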

How the data were processed

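Deposited scanner files give an intensity for every spot. Per the file headers, Agilent's software had subtracted background and detrended each array, with no normalization between arrays. The same deposited files hold flags of 0 or 1, another kind of value, for spots well above background, saturated or outlying. The submitters' processing notes name limma; a normalized intensity table deposited by the authors, made in a way not given in the sources used here, served as an alternative. Control spots were left out, outlier spots were left out of levels only, and spots of a probe were averaged on the log2 scale. This left 7 values of 5 AM probes missing, where every spot was an outlier. A probe counted as well above background where all its spots were. Each array was scaled to its 75th percentile over 7446 probes that every array detected. The 12342 probes detected on 2 or more arrays, and differences between probes of a contig, were fitted with limma 3.58.1 in R 4.3.3 (lmFit and eBayes, 6 groups, no block, 2-sided) and adjusted by Benjamini-Hochberg within each of 7 comparisons. On simulated arrays with 200 of 11963 probes changed, the fit for covering at day 3 recovered 55.2% of 2-fold changes with 3 false calls. Up to 3 rises and 3 falls per comparison were named, among called probes well above background on every array of a group, with up to 6 pairs of unequal change, 6 pairs on all 30 arrays and 6 probes present in all arrays of a group and none of another. Members and lists were chosen with earlier results of these data known; the difference between days and the strings TCAAATAAA and ACGCGT were added after values were seen. Same-numbered replicates deviated with correlations from -0.482 to 0.5. These values cannot show whether the numbers pair samples, and the main fit did not pair by them. Precision is limited by how many arrays each group has.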

Additional observations from a re-analysis of the deposited data

Results flagged for a closer look

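Among 94 sets of 4 to 6 arrays of a group examined, 11 held a single array far from the rest; chance alone gives about 1 in 20 such sets. Uncovered day 3 replicate 2 had 15.6% of the AM probes well above background, higher than the other 5 arrays of its group. In uncovered wounds at day 5, UF_Ocu_AM_114573 read -0.55 in replicate 3, far above the others and with a saturated spot in that group, UF_Ocu_AM_114576 read -4.15 in replicate 4, above the others, UF_Ocu_AM_114701 read -4.22 in replicate 3, below the others, and UF_Ocu_AM_114802 read -4.66 in replicate 5, below the others. In uncovered wounds at day 3, replicate 5 stood apart for UF_Ocu_AM_114784 (-1.96, the highest) and for UF_Ocu_AM_114990 (-1.99, the lowest). In covered wounds at day 5, replicate 1, the array on slide 6, was lowest for UF_Ocu_AM_114784 (-5.21) and UF_Ocu_AM_114962 (-6.63). In covered wounds at day 3, UF_Ocu_AM_115168 read -6.44 in replicate 2, the lowest, and UF_Ocu_AM_115186 read -3.27 in replicate 4, the highest. For UF_Ocu_AM_114927 the fitted change with covering at day 5 minus that at day 3 was -2.67 on the log2 scale and passed the limma threshold, but the probe was not well above background on any array of day 3. The cause of these values was not tested.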

How the results depend on the processing

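Of 5732 alternative fits of 140 called results of named probes and pairs, 5398 kept call and direction, 328 lost the call and 6 changed direction. Fits that leave out 1 array make up 4022 of those that kept the call and 173 of those that lost it; with normexp only 74 of the 140 kept call and direction, and 61 lost the call. The 6 were UF_Ocu_AM_114841 from day 0 to uncovered day 5 with quantile normalization (-0.08) and, with normexp, UF_Ocu_AM_115168 for covering at day 5 (-0.17), closure (0.36) and covered day 5 (-0.02), UF_Ocu_AM_115227 for covered day 5 (-0.16), and UF_Ocu_AM_114927 minus UF_Ocu_AF_106768 at closure (0.08). Counts below follow the order covering at day 3, covering at day 5, closure, and uncovered day 3, covered day 3, uncovered day 5 and covered day 5 against day 0. Shares over all tested probes or pairs are not given for the alternatives, here or above. Their counts therefore cannot be read as particular to AM probes. With normexp the AM calls were 3, 1, 14, 8, 13, 31 and 29. Array weights gave 42 at covering day 3, 22 at closure and 67 at uncovered day 3. Leaving out slide 6 gave 33 at closure. Testing all probes gave 577 at uncovered day 5, 554 higher and 23 lower. With 485 AM probes never well above background, most of these rises were of such probes. Leaving out each array gave AM calls of 15 to 23, 11 to 29, 26 to 62, 31 to 53, 50 to 60, 88 to 101 and 76 to 98, with 26 at closure without unwounded replicate 2. The pairs of unequal change gave 3 to 11, 9 to 16, 5 to 50, 11 to 20, 20 to 46, 52 to 79 and 31 to 59, with 20 at covered day 3 without covered day 3 replicate 4. With normexp the first 6 pair counts were 1, 2, 21, 1, 17 and 25. The authors' table gave 23, 26, 68, 60 and 86 pairs in the first 5 and 96 at covered day 5. Testing all probes gave 13, 36, 155, 55, 155, 359 and 260. Scan day as a block gave 13 at covering day 3, 20 at closure and 51 at covered day 3; slide as a block gave 20 at closure and 28 at uncovered day 3. Array weights gave 18, 35, 3, 31 and 54 in the first 5. Without slide 6 the pairs were 13 at covering day 3, 9 at closure and 49 at covered day 3, and with detection on at least 5 arrays 9 at uncovered day 3. With the replicate number as a block, AM calls were 16, 15, 46, 37, 52, 95 and 86, and the pairs at closure were 17. Whether the numbers pair the samples is not known. With the scanner's looser flag for signal above background, 305 AM probes were on 0 arrays and 112 on all 30. The cause of these differences was not tested. Dim probes are a further limit, since 485 AM probes were never well above background and the main fit did not test them.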
